A study of Homo sapiens with 6 samples.

Results

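The genes described here are 9 factors grouped as the 3′ end processing machinery of replication-dependent histone mRNAs: SLBP, NPAT, CASP8AP2, LSM10, LSM11, CPSF2, CPSF3, SYMPK and ERI1. NPAT acts in the transcription of the histone genes. The 9 genes were chosen by name as this group, out of 58174 genes in the deposited table, of which 16321 passed the expression filter and were tested. The question was whether the transcripts of these factors differed between SiHa cells given BRCA1 and their controls. SiHa is an established cell line from a human cervical squamous cell carcinoma. The OV-BRCA1 group (3 samples) received the GV230-BRCA1 plasmid and the NC group (3 samples) the empty GV230 vector, both with Lipofectamine 3000, and RNA was sequenced at 48 h after mRNA capture on beads. BRCA1 was carried by a transiently transfected plasmid and no selection is described, so each sample may mix cells that took up the plasmid and cells that did not. Every control cell culture also received plasmid DNA and lipid. The study states 3 biological replicates per group, and no preparation batch is named, so a batch that coincided with the groups cannot be told apart from the plasmid.

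Most mRNAs end in a poly(A) tail, but the mRNAs of the clustered histone genes made in S phase end in a short RNA hairpin, the stem-loop, instead. SLBP binds this stem-loop while the U7 small nuclear ribonucleoprotein (snRNP) pairs with a purine-rich element just downstream, and LSM11 in the U7 snRNP together with CASP8AP2 (also called FLASH) recruits a cleavage module of SYMPK, CPSF2 and the endonuclease CPSF3. NPAT drives transcription of the same genes in the histone locus body, and ERI1 is an exonuclease that trims the finished end and takes part in histone mRNA decay. When SLBP or the U7 snRNP is short, transcription can run past the stem-loop to poly(A) sites further on.

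The RNA elements that these factors recognise are given here as DNA letters of the GENCODE 29 transcripts, on the coding strand, so that the later results on histone transcripts can be read against them. In the U7 small nuclear RNA (chr12:6943816-6943878, plus strand, GRCh38) the capitals mark the stretch complementary to AAAGAG in the downstream element and, after it, the site on which the Sm ring assembles. In the histone transcripts, capitals mark the 16 bases of the stem-loop, and for each core histone family the transcript with the highest mean level is shown among single-exon models that contain a stem-loop. These are HIST2H2AA3-201 (chr1:149842214-149842243, minus strand), HIST2H2BE-201 (chr1:149886179-149886208, minus strand), HIST1H3H-201 (chr6:27810511-27810540, plus strand) and HIST1H4H-201 (chr6:26285122-26285151, minus strand).
U7 snRNA (RNU7-1): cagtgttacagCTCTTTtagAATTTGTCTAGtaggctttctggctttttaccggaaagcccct
HIST2H2AA3-201: caaaaGGCTCTTTTCAGAGCCacccacgtt
HIST2H2BE-201: ccaaaGGCTCTTTTCAGAGCCacccaccta
HIST1H3H-201: ccaaaGGCTCTTTTCAGAGCCacccacatg
HIST1H4H-201: ccaaaGGCCCTTTTCAGGGCCgcccacttt

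Expression was deposited as FPKM, fragments per kilobase of transcript scaled to the mapped fragments of the sample, for each transcript, and FPKM was summed over the transcripts of a gene. BRCA1 itself was measured at 35.7, 40.8 and 34.9 FPKM in the OV-BRCA1 group (samples 1, 2 and 3, the order used throughout) and at 20.1, 14.9 and 21.7 FPKM in NC, a log2 fold change of 0.95 (SE 0.14, limma with Benjamini-Hochberg adjustment, adjusted p = 0.00373). Depth was estimated at 14.04 to 19.64 M fragments per sample. Correlations of log2 values between samples were 0.985 to 0.986 within the groups and 0.951 to 0.955 between them. The epithelial keratin genes KRT7, KRT8, KRT17 and KRT18 lay between 188 and 1732 FPKM in the 6 samples, with KRT18 called higher, KRT17 lower and KRT8 higher in a call lost in 7 of 15 alternative settings (limma adjusted p up to 0.085). EPCAM was called higher (6.79 ± 0.860 against 2.59 ± 0.457 FPKM, SD, n = 3), while KRT5, KRT19 and CDH1 stayed below 1 FPKM. Of 9 markers of blood, endothelial, stromal and liver cells, CD14 (6.65 to 20.4 FPKM, lower in the OV-BRCA1 group) and PECAM1 (0.629 to 1.45 FPKM) passed the filter, and PTPRC was listed at 0.

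All 9 genes passed the filter and none met the threshold of an adjusted p below 0.05, against 35.3% of all tested genes (16.4% higher and 18.9% lower). None had an unadjusted p below 0.05 in limma either, against 46.0% of all tested genes, and in this fit of log2(FPKM + 1) none met the study's DEG criterion, which adds an absolute log2 fold change above 1 and which 3.99% of tested genes met. Log2 fold changes ran from -0.16 for SYMPK to 0.32 for SLBP, with a median of 0.039 beside -0.036 over all tested genes, and 6 were positive and 3 negative. The 95% intervals of all 9 genes lay between -0.35 and 0.66, and those of 7 genes lay within 0.5 log2 units of 0. The groups did not overlap in 2 genes, SLBP and CPSF2, where 50.8% of all tested genes had groups that did not overlap. Because each sample is a lysate of many cells, fewer cells expressing a gene and less RNA per cell cannot be told apart.

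**Figure D1:**
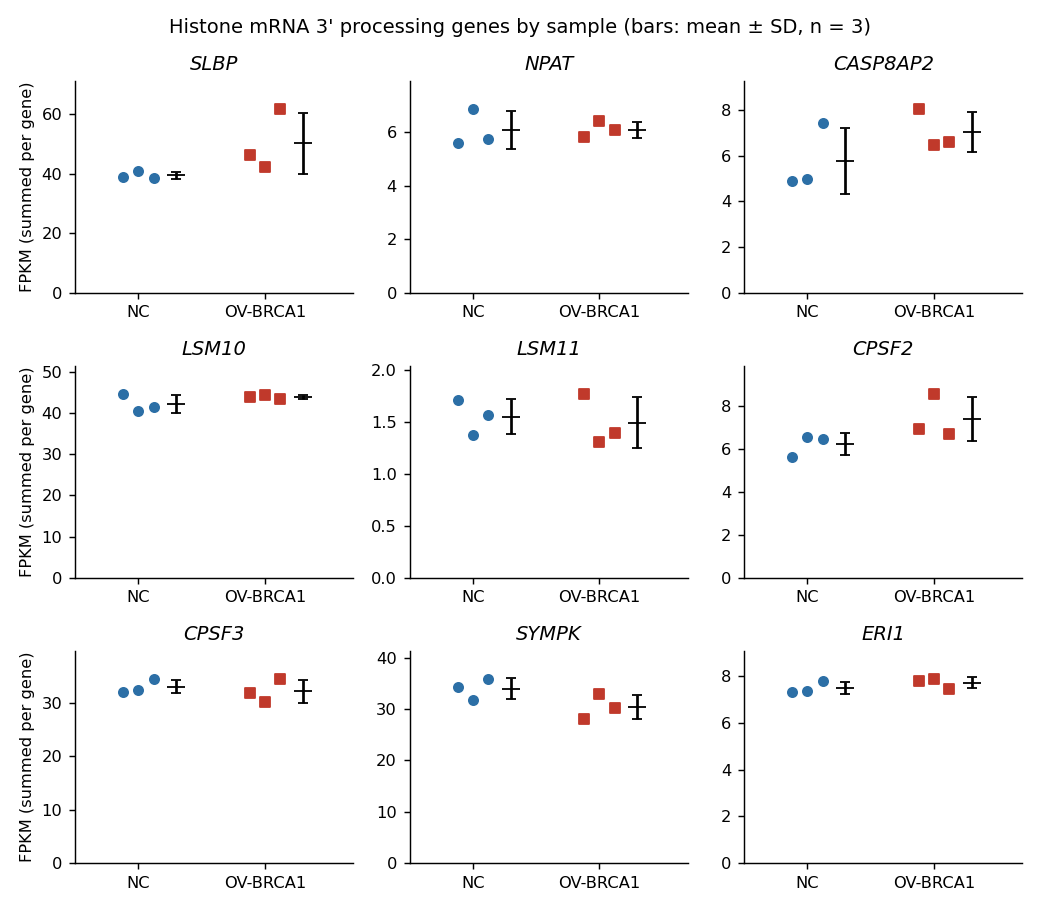
Summed FPKM of the 9 genes in each NC sample (circles) and OV-BRCA1 sample (squares), with the mean ± SD of each group (n = 3) as a bar beside the points and every axis starting at 0. SLBP reached 61.9 FPKM in OV-BRCA1 sample 3 against at most 40.8 FPKM in the NC group, while LSM10, CPSF3 and ERI1 lay at nearly the same height in both groups.

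The levels differed far more between genes than between groups. Averaged over the 6 samples, SLBP (44.8 FPKM) and LSM10 (43.1 FPKM) were highest, followed by CPSF3 (32.6 FPKM) and SYMPK (32.2 FPKM), then ERI1 (7.61 FPKM), CPSF2 (6.78 FPKM), CASP8AP2 (6.40 FPKM) and NPAT (6.09 FPKM), and LSM11 was lowest (1.52 FPKM). The sample ranges of neighbours in this order were separate only between LSM10 and CPSF3, between SYMPK and ERI1, and between NPAT and LSM11. Every other neighbouring pair had overlapping ranges. FPKM is per length, but a sum over transcript models gives a short model as much weight as a long one. The order of the genes is therefore approximate. The most abundant model held 23.3% of the sum in SYMPK and 94.1% in CPSF3. An estimated 129 to 203 fragments per sample lay behind LSM11, the fewest of the 9 genes.

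SLBP (chr4:1692800-1712555, minus strand), the stem-loop binding protein, was measured at 46.3, 42.4 and 61.9 FPKM in the OV-BRCA1 group. The NC values were 39.0, 40.8 and 38.6 FPKM. Every OV-BRCA1 sample was above every NC sample, and sample 3 stood well above the other two. The means were 50.2 ± 10.3 and 39.5 ± 1.17 FPKM (SD, n = 3), and the log2 fold change was 0.32 (SE 0.14, 95% interval -0.0080 to 0.65, limma, adjusted p = 0.116). Without OV-BRCA1 sample 3 the log2 fold change was 0.16 (adjusted p = 0.119).

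The transcript models of SLBP exchanged places within both groups. SLBP-206, which made up 50.1% of the summed FPKM, stood at 30.3, 16.4 and 28.5 FPKM in the OV-BRCA1 samples and at 29.1, 19.7 and 10.9 FPKM in the NC samples. SLBP-201, by contrast, was at 20.2 FPKM in OV-BRCA1 sample 2 and 23.0 FPKM in NC sample 3 and at no more than 1.82 FPKM in the remaining samples, which are the samples where SLBP-206 and SLBP-202 were higher. Together these 3 models gave 42.6, 39.1 and 44.3 FPKM in the OV-BRCA1 samples and 37.1, 39.1 and 35.6 FPKM in the NC samples. Their sum therefore varied far less than its parts. The remaining models, SLBP-203, SLBP-204 and SLBP-205, summed to 17.6 FPKM in OV-BRCA1 sample 3 and to between 1.66 and 3.66 FPKM in the other 5 samples, so the high value of that sample lay in short models. There SLBP-203 was at 0, SLBP-204 (1030 bases) at 6.64 FPKM, and the rest was SLBP-205 (987 bases).

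NPAT (chr11:108157215-108222642, minus strand), the coactivator of histone gene transcription that cyclin E and CDK2 phosphorylate, stood at 5.81, 6.41 and 6.10 FPKM in the OV-BRCA1 samples. The NC samples were at 5.59, 6.89 and 5.76 FPKM. The groups overlapped fully, with a log2 fold change of 0.0086 (SE 0.094, limma, adjusted p = 0.952), and NPAT-201 held 82.1% of the FPKM. NPAT overlaps 159 bases of ATM, the DNA damage kinase gene on the opposite strand, and the use of strand in counting is not given in the sources used here. ATM stood at 10.8 ± 1.21 against 11.6 ± 2.17 FPKM (SD, n = 3), a log2 fold change of -0.082 (SE 0.14, limma, adjusted p = 0.693).

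CASP8AP2 (chr6:89829894-89874436, plus strand), which encodes FLASH, stood at 8.06, 6.45 and 6.61 FPKM in the OV-BRCA1 samples. The NC values were 4.88, 4.98 and 7.43 FPKM. The groups overlapped because NC sample 3 lay above OV-BRCA1 samples 2 and 3. The log2 fold change was 0.26 (SE 0.16, 95% interval -0.13 to 0.66, limma, adjusted p = 0.258). Without NC sample 3 it became 0.43 (SE 0.12) with a limma adjusted p of 0.0456, in a fit in which 27.1% of all tested genes met the threshold.

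The transcript models of CASP8AP2 show what the sum is made of. The long model CASP8AP2-205 (6151 bases) stood at 4.62, 4.06 and 3.14 FPKM in the OV-BRCA1 samples and at 0.834, 1.21 and 5.03 FPKM in the NC samples. CASP8AP2-201, a similarly long model (6719 bases), was at 0 in OV-BRCA1 samples 1 and 2 and NC sample 3 and at 1.79, 3.83 and 3.21 FPKM in OV-BRCA1 sample 3, NC sample 1 and NC sample 2. The sum of both long models was nearly flat, at 4.62, 4.06 and 4.92 FPKM against 4.67, 4.43 and 5.03 FPKM. What differed was CASP8AP2-204, a model of 1300 bases with values of 2.99, 2.26 and 1.67 FPKM in the OV-BRCA1 samples and 0, 0.0817 and 2.18 FPKM in the NC samples.

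An FPKM is per kilobase, so a short model adds as much to a summed FPKM as a long model does from far fewer fragments. The genes were therefore also compared with a length-weighted sum, in which FPKM times transcript length was added up per gene and divided by the gene's mean transcript length, a choice made after the values had been seen. On this scale 40.9% of all tested genes had a limma adjusted p below 0.05, and 1 of the 9 genes did, SYMPK. CASP8AP2 moved from a log2 fold change of 0.26 to -0.011 (SE 0.086, adjusted p = 0.928), and its values were 6.68, 5.69 and 6.77 FPKM against 6.32, 6.04 and 6.92 FPKM. SLBP kept a value of 0.27 (SE 0.12, adjusted p = 0.116), with 48.3, 42.0 and 57.7 FPKM against 41.9, 41.7 and 37.4 FPKM.

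**Figure D2:**
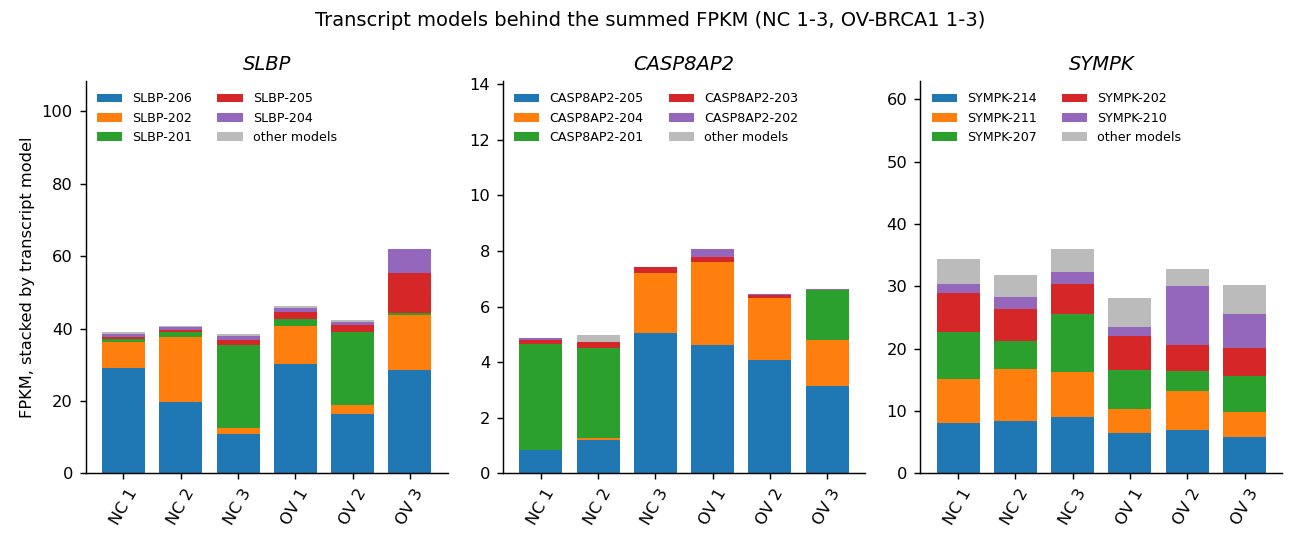
FPKM of the transcript models of SLBP, CASP8AP2 and SYMPK, stacked for each sample (NC 1 to 3, then OV-BRCA1 1 to 3, written OV); the 5 models with the largest share are coloured and the rest are grey. SLBP-201 replaced SLBP-202 and part of SLBP-206 in 1 sample of each group, and CASP8AP2-204 was near 0 in NC samples 1 and 2.

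LSM10 (chr1:36391238-36397892, minus strand) and LSM11 (chr5:157743695-157760709, plus strand) encode the proteins that set the U7 Sm ring apart from the rings of the spliceosome, where SNRPD1 and SNRPD2 take their places. LSM10 stood at 44.0, 44.3 and 43.5 FPKM in the OV-BRCA1 samples and 44.7, 40.4 and 41.4 FPKM in the NC samples (log2 fold change 0.058, SE 0.054, limma, adjusted p = 0.449). LSM11 stood at 1.77, 1.31 and 1.39 FPKM against 1.71, 1.37 and 1.57 FPKM (log2 fold change -0.036, SE 0.11, limma, adjusted p = 0.823). The highest and the lowest LSM11 value both came from the OV-BRCA1 group. Transcripts of LSM10 exceeded those of LSM11 by 24.8 to 33.9 times in the 6 samples, although the ring holds both proteins. LSM10-201 held 98.9% of the FPKM of LSM10, and LSM11-201 is the only model of LSM11.

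Of the other 6 proteins listed with the U7 snRNP (SNRPB, SNRPD3, SNRPE, SNRPF, SNRPG and the U7-associated zinc finger protein ZNF473), 2 were called lower and none higher (33.3%, beside 35.3% of all tested genes), and their median log2 fold change was -0.067. SNRPB stood at 263, 225 and 237 FPKM against 281, 275 and 286 FPKM (log2 fold change -0.22, SE 0.064, limma, adjusted p = 0.0396). SNRPE stood at 44.2, 39.2 and 39.5 FPKM against 45.0, 50.1 and 52.2 FPKM (log2 fold change -0.26, SE 0.078, limma, adjusted p = 0.0459). Both lay close to the threshold, and these calls were lost in 8 and 9 of the 15 alternative settings, with adjusted p-values up to 0.107 and 0.324. The spliceosomal SNRPD1 and SNRPD2 had log2 fold changes of 0.016 (SE 0.094, adjusted p = 0.912) and -0.23 (SE 0.23, adjusted p = 0.479) in limma. The sign of SNRPD1 turned in 5 settings and that of SNRPD2 in 1.

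The U7 RNA itself, printed above, could not be measured. RNU7-1 is 63 bases long and lacks a poly(A) tail, and it was listed at 0.218, 0.153 and 0.367 FPKM in the OV-BRCA1 samples and 0.0347, 0.0426 and 0.0020 FPKM in the NC samples. These values were below the filter and no fold change was computed. It also lies inside C12orf57, which averaged 92.2 FPKM on the same strand.

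CPSF2 (chr14:92121937-92172145, plus strand) encodes the inactive partner of the endonuclease. It stood at 6.90, 8.55 and 6.66 FPKM in the OV-BRCA1 samples and at 5.61, 6.53 and 6.46 FPKM in the NC samples. The groups were separate by a narrow margin, from 6.53 to 6.66 FPKM, and the log2 fold change was 0.21 (SE 0.11, limma, adjusted p = 0.185). Without OV-BRCA1 sample 2 it was 0.11 (SE 0.10, limma, adjusted p = 0.416), and without NC sample 1 it was 0.15. The high value of OV-BRCA1 sample 2 came with 2.30 FPKM in CPSF2-204, a model of 806 bases that stood at no more than 1.10 FPKM elsewhere. In the main model, CPSF2-201 (13035 bases, 74.8% of the summed FPKM), the groups were at 5.25 ± 0.125 and 4.90 ± 0.224 FPKM (SD, n = 3), and by the length-weighted sum the log2 fold change was 0.10 (SE 0.059, limma, adjusted p = 0.240) and the groups overlapped.

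CPSF3 (chr2:9423568-9473101, plus strand), the endonuclease that makes the cut, stood at 31.9, 30.2 and 34.5 FPKM against 32.1, 32.5 and 34.4 FPKM. The groups overlapped, and the log2 fold change was -0.035 (SE 0.066, 95% interval -0.20 to 0.12, limma, adjusted p = 0.713). A single model, CPSF3-201, held 94.1% of the FPKM. Transcripts of CPSF3 exceeded those of CPSF2 by 3.53 to 5.72 times in the 6 samples.

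SYMPK (chr19:45815410-45863290, minus strand), the scaffold of the cleavage module, stood at 28.1, 32.9 and 30.2 FPKM in the OV-BRCA1 samples. The NC samples were at 34.3, 31.8 and 35.9 FPKM. The groups overlapped only through OV-BRCA1 sample 2 and NC sample 2, and the log2 fold change was -0.16 (SE 0.078, 95% interval -0.35 to 0.029, limma, adjusted p = 0.162). By the length-weighted sum the values were 29.9, 29.9 and 27.7 FPKM against 35.4, 34.2 and 36.2 FPKM. On that scale the groups no longer overlapped and the log2 fold change was -0.27 (SE 0.047, limma, adjusted p = 0.00658), the only call among the 9 genes there.

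The FPKM of SYMPK was spread over 18 models, 5 of which held at least 10% each. SYMPK-214, the most abundant model and listed as protein coding (6537 bases, 23.3% of the sum), stood at 6.52, 7.03 and 5.85 FPKM in the OV-BRCA1 samples and 8.08, 8.38 and 9.12 FPKM in the NC samples, with no overlap (log2 fold change -0.35, SE 0.092, limma, adjusted p = 0.0505). SYMPK-211, a retained-intron model of 995 bases, was also lower in every OV-BRCA1 sample, at 4.67 ± 1.34 against 7.52 ± 0.748 FPKM (SD, n = 3). SYMPK-210, another retained-intron model (1000 bases), stood at 1.5, 9.5 and 5.42 FPKM in the OV-BRCA1 samples and at 1.48, 1.93 and 1.89 FPKM in the NC samples, so OV-BRCA1 samples 2 and 3 were above the NC range and sample 1 lay within it. SYMPK-207 (5.04 ± 1.61 against 7.11 ± 2.49 FPKM) and SYMPK-202 (4.69 ± 0.671 against 5.38 ± 0.75 FPKM, SD, n = 3) had overlapping groups. An antisense gene, AC092301.1, overlaps 945 bases of SYMPK and averaged 1.03 FPKM.

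**Figure D3:**
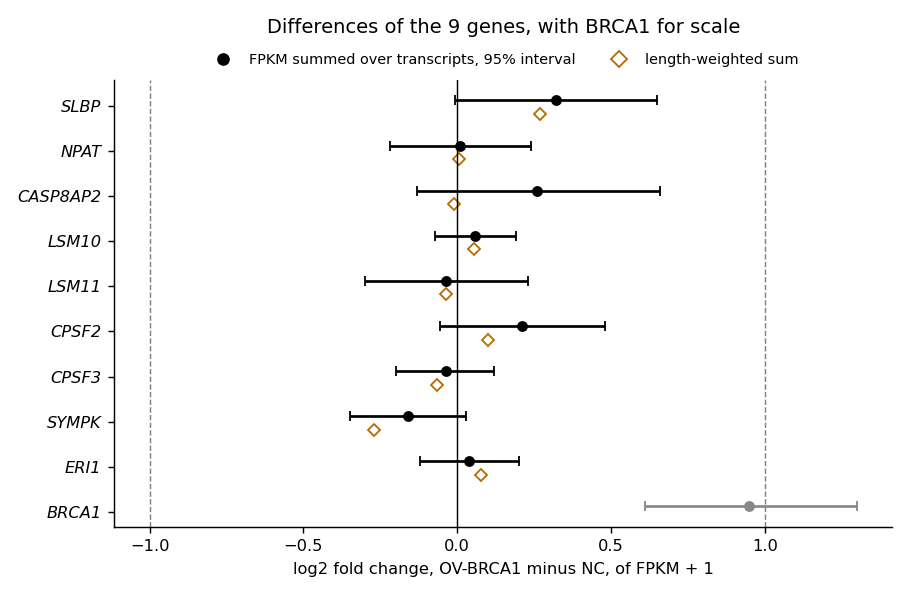
Log2 fold change of FPKM + 1 (OV-BRCA1 minus NC) of the 9 genes and of BRCA1. Filled circles with bars give the summed FPKM with its 95% interval, open diamonds the length-weighted sum, and dashed lines a log2 fold change of 1 in either direction. The intervals of all 9 genes include 0 and stay inside the dashed lines, and the diamond of SYMPK lies at -0.27.

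ERI1 (chr8:9002147-9116746, plus strand), the exonuclease that trims histone mRNA ends, stood at 7.82, 7.89 and 7.46 FPKM against 7.31, 7.38 and 7.78 FPKM. The groups overlapped, and the log2 fold change was 0.039 (SE 0.065, 95% interval -0.12 to 0.20, limma, adjusted p = 0.674). A single model, ERI1-201, held 93.3% of the FPKM.

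The partners of these factors were examined with lists of 85 other genes, of the histone mRNA pathway and of the spliceosomal Sm and canonical poly(A) machineries set beside it, of which 84 were tested. Of these, 6 were called higher and 21 lower (32.1% together, beside 35.3% of all tested genes, 16.4% higher and 18.9% lower), none met the DEG criterion in this limma fit of log2(FPKM + 1), which 3.99% of all tested genes met, and the median log2 fold change was -0.10. The share called in each list is to be read against the same 35.3%, and the lists were not tested as sets. The split depended on the setting, with 13 called higher by the length-weighted sum, 2 higher without NC sample 3, 3 higher without NC sample 1, OV-BRCA1 sample 2 or OV-BRCA1 sample 3, and 11 lower with the most abundant transcript. Among the 6 proteins shared with or associated with the cleavage module (CSTF2, CSTF2T, CPSF1, CPSF4, FIP1L1 and WDR33), CPSF1 was the only call (16.7%). CPSF1, the largest subunit of the poly(A) cleavage complex, stood at 66.3, 59.6 and 58.3 FPKM against 108, 94.6 and 95.3 FPKM (log2 fold change -0.68, SE 0.076, limma, adjusted p = 0.00119). CPSF2 and CPSF3, which act with it in poly(A) site cleavage, had the values given above.

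In the list of canonical cleavage and polyadenylation factors, 4 of 12 genes were called lower and none higher (33.3%), with a median of -0.017. PABPN1, the nuclear poly(A) binding protein, fell from 75.9 ± 1.44 FPKM with the empty vector to 47.8 ± 1.04 FPKM (SD, n = 3, log2 fold change -0.66, limma, adjusted p = 1.61e-04). CPSF7, a subunit of cleavage factor I, fell from 48.8 ± 1.74 to 34.1 ± 1.38 FPKM (log2 fold change -0.50, limma, adjusted p = 0.00107). PCF11, which couples cleavage to transcription termination, had a log2 fold change of -0.41 (SE 0.086, limma, adjusted p = 0.0129), and CSTF3 one of -0.22 (SE 0.053, limma, adjusted p = 0.0217) that 7 of 15 settings did not keep below the threshold.

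The cap binding and elongation factors that link histone transcription to 3′ processing gave 4 lower calls among 9 genes (44.4%) and a median of -0.22. SRRT, which encodes ARS2, stood at 75.0 ± 7.42 against 99.9 ± 5.13 FPKM (SD, n = 3, log2 fold change -0.41, limma, adjusted p = 0.0103). Of the negative elongation factor genes, NELFCD (-0.24, adjusted p = 0.0107) and NELFA (-0.34, adjusted p = 0.0438) were called lower by limma, as was the elongation kinase CDK9 (-0.22, adjusted p = 0.0486). The calls of NELFA and CDK9 were lost in 9 and 8 of 15 settings, and with the most abundant transcript SRRT (0.0099, adjusted p = 0.969) and NELFCD (0.053, adjusted p = 0.924) were not called in limma and had the opposite sign. NCBP2, the small cap binding subunit, was not called (log2 fold change -0.70, SE 0.37, limma, adjusted p = 0.194) and stood at 7.65 FPKM in OV-BRCA1 sample 3 against 21.3 to 26.3 FPKM in the other samples.

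Genes that control histone transcription together with NPAT moved in both directions, with 2 of 12 called higher and 4 lower (6 of 12 together). HINFP, the histone H4 promoter factor, fell from 15.4 ± 0.828 to 10.9 ± 1.25 FPKM (SD, n = 3, log2 fold change -0.46, limma, adjusted p = 0.0107). E2F2 and E2F1, activators of S phase genes, had log2 fold changes of -0.69 (SE 0.074, limma, adjusted p = 0.00102) and -0.24 (SE 0.058, limma, adjusted p = 0.0224). GON4L, whose fly counterpart lies in the histone locus body, had one of -0.68 (SE 0.17, limma, adjusted p = 0.0254), a call lost in 7 of 15 settings. The call of E2F1 was lost in 4 settings (limma adjusted p up to 0.0704) and that of HINFP in 1 (0.142). The higher calls were POU2F1, the OCT1 factor of H2B promoters (log2 fold change 0.36, limma, adjusted p = 0.0446), and the S phase cyclin CCNE2 (0.27, limma, adjusted p = 0.0294). How these 2 calls held in the alternative settings is not reported here. CDK2, the kinase that phosphorylates NPAT, varied within both groups, at 25.4, 32.4 and 74.2 FPKM against 97.2, 37.4 and 39.0 FPKM.

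Of the 8 genes linked to SLBP turnover at the end of S phase, 3 were called lower and none higher (37.5%), with the lowest median of the pathway lists (-0.33). CCNF, the F-box protein that targets SLBP in G2, stood at 8.23, 8.39 and 7.87 FPKM against 14.1, 14.6 and 13.7 FPKM (log2 fold change -0.72, SE 0.062, limma, adjusted p = 4.22e-04). CDK1, whose complex with cyclin A phosphorylates SLBP, stood at 65.3 ± 1.99 against 85.6 ± 4.38 FPKM (SD, n = 3, log2 fold change -0.39, limma, adjusted p = 0.00297). With the most abundant transcript neither was called, at -0.77 (limma, adjusted p = 0.114) for CCNF and -0.22 (limma, adjusted p = 0.282) for CDK1. CCNA2, the cyclin of that complex, had a log2 fold change of -0.12 (SE 0.051, limma, adjusted p = 0.106).

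None of the 7 genes of histone mRNA export and translation was called by limma, and 1, the translation initiation scaffold EIF4G1, had an unadjusted p below 0.05, as 46.0% of all tested genes did (log2 fold change 0.36, SE 0.11, adjusted p = 0.0514). Among the 22 genes of histone mRNA decay, in which ERI1 also takes part, 4 were called higher and 3 lower (31.8% together), with a median of -0.077. DCP1A, a decapping activator, rose from 5.20 ± 0.228 to 8.51 ± 0.186 FPKM (SD, n = 3, log2 fold change 0.62, limma, adjusted p = 0.00108), and DIS3, an exosome nuclease, from 4.86 ± 0.226 to 7.86 ± 1.28 FPKM (log2 fold change 0.59, limma, adjusted p = 0.00982). With the most abundant transcript the value of DIS3 was 0.21 (limma, adjusted p = 0.433). XRN1, the 5′ to 3′ exonuclease (0.43, adjusted p = 0.0231), and PATL1, a decapping cofactor (0.22, adjusted p = 0.0227), were the other higher calls in limma. EXOSC10 had a log2 fold change of -0.27 (SE 0.050, limma, adjusted p = 0.00841), TUT4, a terminal uridylyltransferase, one of -0.28 (adjusted p = 0.0450), and LSM6, a subunit of the ring that binds uridylated ends, one of -0.37 (SE 0.074, limma, adjusted p = 0.0108). How the calls of XRN1, PATL1 and TUT4 held in the alternative settings is not reported here. EXOSC10 and LSM6 depended on how transcripts were added up. The length-weighted sum gave -0.095 (adjusted p = 0.122) for EXOSC10 and 0.22 (SE 0.059, adjusted p = 0.0310) for LSM6 in limma, and the most abundant transcript gave 0.72 (adjusted p = 0.146) and 0.44 (adjusted p = 0.149).

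**Figure D4:**
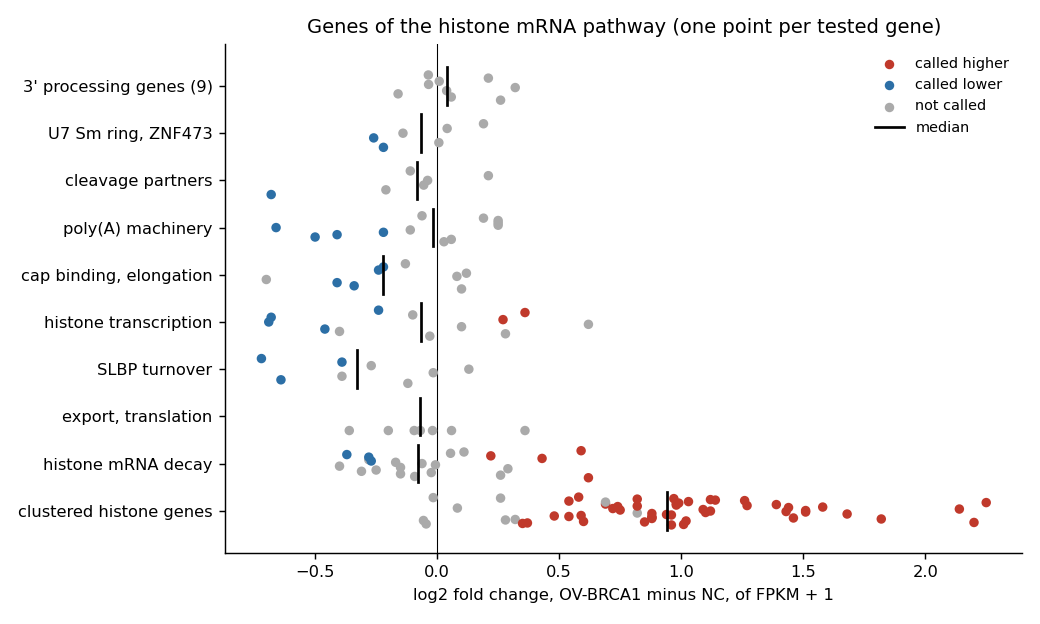
Log2 fold change of FPKM + 1 (OV-BRCA1 minus NC) of each tested gene by list, coloured by the limma call at an adjusted p below 0.05, with the list median as a vertical line. The 9 genes hold no call, the 84 other tested genes of these lists (SNRPD1 and SNRPD2 not drawn) hold 6 higher and 21 lower calls, and the clustered histone genes hold 48 higher and no lower calls.

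The clustered histone genes are the substrates of these factors, and most of those tested were called higher in the OV-BRCA1 group. Of 71 genes, 14 were below the filter and 57 were tested, of which 48 were called higher (84.2%, beside 16.4% of all tested genes). Because 5 of the 57 had a mean below 0.5 FPKM in the NC group and passed the filter through the OV-BRCA1 samples, the counts were repeated without them, a limit set after the values had been seen. Of the other 52 genes, 43 were called higher (82.7%, beside 15.3% of all tested genes at the same NC limit), none lower and 9 were not called. The DEG criterion was met by 21 of the 52 (40.4%, beside 3.49%), and their median log2 fold change was 0.96, beside -0.05 over all tested genes at that limit. HIST1H4H, whose stem-loop is printed above, rose from 47.2 ± 1.6 to 229 ± 3.27 FPKM (SD, n = 3, log2 fold change 2.25, limma, adjusted p = 2.47e-06). HIST1H2AC rose from 100 ± 1.62 to 273 ± 6.19 FPKM (log2 fold change 1.44, limma, adjusted p = 5.26e-06). HIST2H4A and HIST2H4B are near-identical copies, so their shares of the reads (log2 fold changes of 1.68 and 1.51) are uncertain.

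Because histone mRNAs processed at the stem-loop carry no poly(A) tail and the RNA was captured as mRNA on beads, the annotated transcript models were sorted by where they end. Of 65 models with a mean of at least 1 FPKM, 8 ended within 60 bases after the stem-loop and summed to 807, 772 and 750 FPKM in the OV-BRCA1 samples against 383, 370 and 371 FPKM in the NC samples, a ratio of means of 2.07. The 26 models that ran further past the stem-loop summed to 1053, 1067 and 1056 FPKM against 408 FPKM in each NC sample, a ratio of 2.59. The 31 models that hold no stem-loop sequence, among them models that stop at the end of the coding sequence, had a ratio of 1.68. Ratios of sums weigh abundant models most. In the first class those were HIST2H2AA3-201 and HIST2H2AA4-201, with means of 220 and 214 FPKM and a ratio of 1.85 each. Their values were nearly alike in every sample, so how reads were shared between them is uncertain. Some models reached 1 FPKM only through the OV-BRCA1 samples, so single models were described among those with a mean of at least 1 FPKM in the NC group alone, a limit set after the values had been seen. There the median ratio per model was 2.05, 2.60 and 2.17, which turns the order of the first and last class. All 3 OV-BRCA1 values lay above the NC values in 7 of 8, 23 of 25 and 20 of 26 of these models, beside 11.1% of 35764 transcript models of all genes at the same limit. The difference between the classes was not tested. A class gives where the annotated model ends and does not show where the RNA ended. HIST2H2AA3, for example, has 1 model, so its whole FPKM falls in the first class. Within HIST1H4H, the share of FPKM in models running past the stem-loop was 47.2% ± 1.81 for OV-BRCA1 and 45.7% ± 2.82 for NC samples (SD, n = 3), which overlapped.

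**Figure D5:**
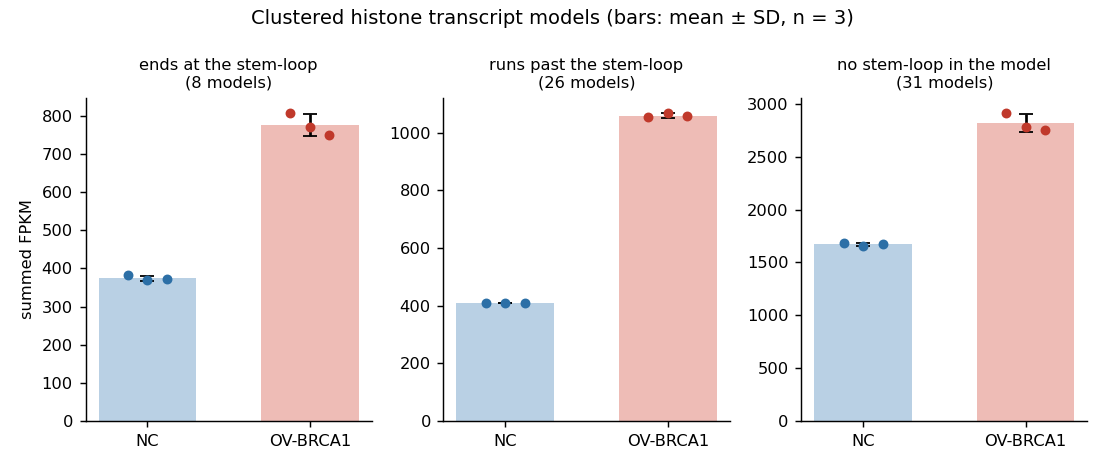
Summed FPKM of clustered histone transcript models that end within 60 bases after the stem-loop, run past it or hold no stem-loop sequence, in each sample (points) with the mean ± SD of each group (bars, n = 3, axes from 0). All 3 classes were higher in the OV-BRCA1 samples, by ratios of summed FPKM of 2.07, 2.59 and 1.68.

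Other values moved together with the histone transcripts. Among 11 listed RNAs that lack a poly(A) tail, 5 were below the filter and 5 of the 6 tested were called higher, beside 16.4% of all tested genes. Of those not tested, RNU6ATAC stood at 0.222 ± 0.20 FPKM in the OV-BRCA1 against 0.66 ± 0.412 FPKM in the NC samples and RNU11 at 0.132 ± 0.212 against 0.392 ± 0.347 FPKM, with overlapping groups (SD, n = 3). The tested RNAs included RN7SL2 at 151, 203 and 154 FPKM against 4.0, 3.87 and 9.75 FPKM, RN7SL1 at 173 ± 27.3 against 18.8 ± 3.99 FPKM and RMRP at 31.8 ± 2.98 against 0.638 ± 0.645 FPKM (SD, n = 3). RN7SL1 overlaps RPS29 on the opposite strand over 299 bases, and RPS29 averaged 339 FPKM. The use of strand in counting is not given. All 10 genes of the interferon-stimulated list were called higher, with log2 fold changes of 1.62 to 4.08, among them IFIT1, IFIT2 and IFIT3. The part of either in the histone result was not tested.

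The element that U7 RNA reads was searched for in the histone transcripts. Of 40 stem-loop transcripts with at least 30 bases after the stem-loop, 16 (40.0%) held AAAGAG in those 30 bases on the sense strand, and none of the 46 windows of the same length before the stem-loop did. The stem-loop pattern itself was found in 1.17% of 206534 GENCODE 29 transcripts. In the promoters of the 9 genes (RefSeq, GRCh38.p14, 250 bases before to 50 after the start), 8 genes were matched and ERI1 was not. An E2F motif (TTTGGCGC, TTTCGCGC, TTTCCCGC or TTTGCCGC on either strand) was present in 2 of 8, CASP8AP2 and CPSF3, and in 3.31% of 35116 promoters. CCAAT on either strand was present in 4 of 8, CASP8AP2, CPSF2, LSM10 and NPAT, and in 34.6% of promoters.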

How the data were processed

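Values were FPKM per transcript (199167 transcripts of 58174 genes), made and deposited by the authors, whose processing notes name FastQC, HISAT2 and hg38; the annotation, the quantifier and the use of strand are not given in the sources used here. Samples were grouped by their labels. FPKM was summed per gene and named by GENCODE 29 (GRCh38), which held 198868 of the transcripts, 98.7% of them at the same start and end, and 338 genes kept their identifier. Depth was estimated from the step of low FPKM values in 14216 single-transcript genes of 600 to 5000 bases, searched between 10 and 21 M fragments. Only 37.1% to 40.7% of low values fell within 0.1 of a whole fragment, so whole reads were not recovered.

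Genes with at least 0.5 FPKM in at least 3 samples were compared with limma 3.58.1 in R 4.3.3 (trend, log2(FPKM + 1), Benjamini-Hochberg over 16321 genes), since the study's count test could not be run on FPKM. A fold change on this scale understates the change of low genes. Called means an adjusted p below 0.05. A two-sided exact permutation test of 3 against 3 cannot go below 0.1 and was not used. The model was also run on simulated data, with the outcome not reported here. Python 3.11.15, numpy 2.4.6, pandas 2.3.3 and matplotlib 3.10.9 served the remaining steps.

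The 9 genes and all lists were chosen with earlier results of these data known. Besides the 9 genes and BRCA1, up to 4 called genes per pathway list (up to 3 in context lists) with the smallest adjusted p, lists of at most 2 genes whole, RNU7-1, ATM and transcript models of at least 10% were named by rule. SLBP-203, SLBP-204, SLBP-205, NCBP2, CDK2, CCNA2, POU2F1, CCNE2, XRN1, PATL1, TUT4 and EIF4G1, the keratin and other marker genes and the overlapping genes were picked for mention with their values in view, as were the histone transcripts shown. Alternatives were a pseudocount of 0.1, no filter, a mean of at least 1 FPKM, a block for the replicate number, fits without each sample, 2 scalings, the most abundant transcript, robust estimation and, added after seeing the data, the length-weighted sum. Some genes that the naming rule covers are counted in their lists and not reported singly here.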

Additional observations from a re-analysis of the deposited data

How the results depend on the processing

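None of the 9 genes met the DEG criterion in any of 15 alternative settings, and in each of 2 settings 1 gene met the adjusted p threshold, SYMPK with the length-weighted sum and CASP8AP2 without NC replicate 3. Leaving out each sample gave 0 to 1 called genes. The replicate numbers did not pair the samples (correlations of deviations -0.0244, 0.0250 and 0.0136), and with a replicate block 0 of the 9 genes were called and 4595 genes in all against 5764. The log2 fold changes of 5 of the 9 genes kept their sign in every setting. Over the fits that leave out a sample, SLBP lay between 0.16 and 0.43, CASP8AP2 between 0.17 and 0.43, CPSF2 between 0.11 and 0.27, SYMPK between -0.22 and -0.11, CPSF3 between -0.086 and 0.0086, LSM11 between -0.12 and 0.018, NPAT between -0.041 and 0.089, ATM between -0.21 and 0.041 and SNRPD1 between -0.054 and 0.091. CPSF3 turned to 0.00063 with median-of-ratios scaling and to 0.0086 without OV-BRCA1 replicate 2. LSM11 turned to 0.0094 without NC replicate 1 and 0.018 without OV-BRCA1 replicate 2. NPAT turned to -0.025 with scaling to nuclear protein-coding genes and to -0.041, -0.023 and -0.022 without NC replicate 1, NC replicate 3 and OV-BRCA1 replicate 2. CASP8AP2 turned to -0.011 with the length-weighted sum. All the turned values of these 4 genes lie within their SE of 0.

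Of the 84 other listed genes, 2 to 6 were called higher and 14 to 18 lower when a sample was left out, 13 higher with the length-weighted sum, and 11 lower with the most abundant transcript. With the most abundant transcript the sign turned for ATM (0.027), EXOSC10 (0.72), LSM6 (0.44), NELFCD (0.053), RRM2 (-0.68), SNRPD1 (-0.077), SNRPD2 (0.54) and SRRT (0.0099), and for none of these 8 was the turned value called. The calls of CCNF (-0.77), CDK1 (-0.22) and DIS3 (0.21) were lost with that transcript. With the length-weighted sum it turned for LSM6 (0.22, called higher) and SNRPD1 (-0.070). SNRPD1 also turned with scaling to nuclear protein-coding genes (-0.021), without NC replicate 3 (-0.031) and without OV-BRCA1 replicate 2 (-0.054), and ATM without NC replicate 1 (0.041). The cause was not tested. A pseudocount of 0.1 raised the genes past the DEG criterion from 651 to 1280, and the share of called genes fell to 14.5% without a filter and to 21.1% with the most abundant transcript. The fewest fragments of the 9 genes lay behind LSM11, an estimated 129 to 203 per sample, and whether depth sets the precision of its values was not tested.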

Other observations

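Histone mRNA processing is coupled to DNA synthesis, and the 26 genes of DNA synthesis and S phase listed beside the pathway gave 3 higher and 7 lower calls (38.5% together, beside 35.3% of all tested genes), with a median log2 fold change of 0.0091. CDC6, which loads the replicative helicase, rose from 26.1 ± 0.434 to 38.7 ± 1.28 FPKM (SD, n = 3, log2 fold change 0.55, limma, adjusted p = 5.24e-04). RRM2, the small subunit of ribonucleotide reductase, rose from 120 ± 2.46 to 144 ± 4.87 FPKM (log2 fold change 0.26, limma, adjusted p = 0.00586), although its most abundant transcript gave -0.68.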
